A study of Homo sapiens with 29 samples.

Results

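BACH2, BCL6 and 7 further transcription regulators of B-cell fate (PRDM1, IRF4, IRF8, PAX5, XBP1, SPIB and POU2AF1) were followed in DHL6 and DHL4, lines established from diffuse large B-cell lymphoma. Every probe set annotated to these symbols alone was taken, which gave 13 probe sets of 9 genes among 22215 probe sets and 12165 genes in all. The lines were exposed to R406, which blocks the kinase SYK, or to its solvent DMSO. RNA was hybridised to 29 short-oligonucleotide expression arrays.

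DHL6 was treated with 1 µM R406 for 2, 6, 24 or 48 h, and DHL4 likewise, with 3 arrays in each of these 8 groups. The solvent groups were DHL6 in DMSO, with 3 arrays, and DHL4 in DMSO, with 2. The DMSO arrays carry no time in the labels and serve all 4 R406 times of their line, so time in R406 and time in culture cannot be told apart, and the comparisons of a line share their DMSO arrays. Each group is a single cell line under a single inhibitor at a single dose. Nothing in the labels tells whether replicate arrays stem from independent cultures, and the p-values then reflect only the scatter between arrays, which may be technical. Where a gene has several probe sets, set 1 is that with the highest mean over all arrays.

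SYK passes on the signal of the B-cell receptor. BCL6 and BACH2 are repressors that keep germinal-centre B cells from becoming plasma cells, in part by repressing PRDM1, while PAX5, IRF8, SPIB and POU2AF1 maintain the B-cell programme. IRF4 and PRDM1 drive plasma cell formation, and XBP1 serves secretion in these cells.

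Promoter sequence is shown for 3 members, BACH2 as the gene with the widest response and BCL6 and PRDM1 as the members whose windows held a motif that was searched. The sequences are from RefSeq on GRCh38.p14, read 5′ to 3′ on the gene's strand, and 8 of the 9 symbols matched, with 12 windows of 250 bases before and 50 after a start. Capitals mark motif matches. The BACH2 window lies at chr6:90296844-90297093 on the minus strand, the PRDM1 window before its start number 2 at chr6:106098691-106098940 on the plus strand, and the BCL6 window before its start number 2 at chr3:187736502-187736751 on the minus strand. The shorter BCL6 stretch, after start number 1, lies at chr3:187745419-187745448 on the minus strand.
BACH2 before the start: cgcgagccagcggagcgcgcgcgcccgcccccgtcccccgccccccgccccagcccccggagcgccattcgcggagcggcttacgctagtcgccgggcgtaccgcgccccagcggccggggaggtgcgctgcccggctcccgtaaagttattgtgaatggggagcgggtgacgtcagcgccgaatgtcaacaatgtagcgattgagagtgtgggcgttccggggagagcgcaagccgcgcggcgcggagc
PRDM1 before start number 2: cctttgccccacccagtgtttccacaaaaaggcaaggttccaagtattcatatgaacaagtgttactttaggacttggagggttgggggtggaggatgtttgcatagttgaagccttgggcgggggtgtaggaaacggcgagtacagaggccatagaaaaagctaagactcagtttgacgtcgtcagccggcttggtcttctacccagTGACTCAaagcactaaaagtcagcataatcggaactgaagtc
BCL6 before start number 2: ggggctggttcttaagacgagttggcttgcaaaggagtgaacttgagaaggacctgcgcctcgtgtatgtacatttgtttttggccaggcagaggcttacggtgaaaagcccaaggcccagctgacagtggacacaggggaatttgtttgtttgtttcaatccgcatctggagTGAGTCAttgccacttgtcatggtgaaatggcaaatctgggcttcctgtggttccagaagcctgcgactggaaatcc
BCL6 after start number 1: tggtgatgcaagaagtTTCTAGGAAaggcc

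4 motifs were searched on both strands. TGANTCA, the core bound by AP-1 and BACH factors, was found in the PRDM1 window (as TGACTCA, its first base at position -42, the last base before the start being -1) and in the BCL6 window of start number 2 (as TGAGTCA, at -77), and 7.71% of 35116 windows of the same length hold it. TTCCTNGAA, the BCL6 core, was found in the BCL6 window of start number 1, as TTCTAGGAA on the opposite strand at position 37, and 1.56% of all windows hold it. GTAAACA, the forkhead core (3.42% of windows), and an ETS-IRF composite of GGAA, any 2 bases and GAAA (2.82%) had no match in the 12 windows. In BACH2, IRF4, IRF8, PAX5, XBP1 and SPIB the windows held none of these motifs. A match is a description of the letters and not of binding.

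The deposited values are log2 levels, and 3.18 was their median over all probe sets and arrays. Genes called dim here had group means below it. Arrays of a group correlated at r between 0.978 and 0.996 across probe sets, which are not independent replicates, and no pair of arrays was identical. 4 arrays had an upper quartile below 5, a bound set after seeing the data, and are called here the 4 that stood apart. They were DHL6 R406 6 h replicate 3, DHL6 R406 48 h replicates 1 and 3, and DHL4 R406 2 h replicate 3. Their upper quartiles lay between 4.79 and 4.96, against 5.06 to 5.34 in the other 25, without a wide gap between. Leaving out these 4 leaves 1 array at 48 h in DHL6. Calls against DMSO that change without them are given with both values. The lines carried B-cell RNA, with 5 B-cell markers averaging 8.23 to 10.6, against 2.48 to 3.03 for 6 T-cell markers and 2.81 to 3.06 for 4 monocyte and macrophage markers. The average of the T-cell markers ran from 2.73 to 3.08 over the arrays and that of the monocyte and macrophage markers from 2.74 to 3.10, below the overall median in every array. Of 6 germinal-centre markers, LMO2 averaged 3.79 and RGS13 9.92 over all arrays, the lowest and highest of the list. In DMSO alone LMO2 averaged 5.42 in DHL6 and 6.18 in DHL4. Of 6 plasma cell markers, SDC1 averaged 3.02 and SLAMF7 3.08, while CD38 averaged 8.20 and JCHAIN 8.59.

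Of the 13 member probe sets, 4, 6, 6 and 6 passed limma's test (adjusted p below 0.05) in DHL6 at 2, 6, 24 and 48 h of R406 against DMSO, where 4.37%, 6.89%, 12.4% and 20.3% of all probe sets passed. Of these 3, 5, 5 and 4 were higher in R406, against 1.63%, 2.46%, 5.11% and 6.86% of all probe sets. In DHL4 6, 6, 6 and 5 passed at the same times, against 8.04%, 10.6%, 26% and 6.32% of all probe sets, and 3, 3, 5 and 5 of these were higher, against 2.18%, 5.2%, 11.7% and 2.89%. With quantile normalization 5 of 5 called were higher at 6 h in DHL6 and 5 of 6 at 48 h, and with median centring 5 of 7 at 6 and 24 h in DHL6 and at 24 h in DHL4. Between successive R406 times (6 and 2 h, 24 and 6 h, 48 and 24 h), 5, 4 and 2 member probe sets differed in DHL6 and 6, 5 and 8 in DHL4, where 3.51%, 4.47% and 6.04% of all probe sets did in DHL6 and 10.1%, 19.6% and 21.8% in DHL4. The median log2 difference over the 13 probe sets ran from 0.02 to 0.21 in DHL6 and from -0.02 to 0.23 in DHL4, while that of all probe sets ran from 0.01 to 0.04 in each line. These arrays measure RNA of whole cultures, so fewer cells holding a transcript and less RNA per cell cannot be told apart.

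BACH2, which represses the plasma cell programme together with small MAF proteins, rose in both lines at every time, on both of its probe sets. In DHL6, set 1 read 5.67, 4.91 and 5.22 in DMSO, 8.96, 8.91 and 8.63 at 2 h, 7.26, 7.43 and 7.00 at 6 h, 7.46, 7.56 and 7.84 at 24 h, and 8.20, 7.92 and 8.08 at 48 h. In DHL4 it read 7.34 and 7.17 in DMSO, 9.38, 9.47 and 9.53 at 2 h, 9.84, 9.86 and 9.87 at 6 h, 10.36, 10.37 and 10.37 at 24 h, and 8.87, 8.84 and 8.75 at 48 h. No R406 array overlapped the DMSO arrays of its line. The highest level came at 2 h in DHL6 and at 24 h in DHL4.

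The R406 minus DMSO difference of BACH2 in DHL6 was 3.56 ± 0.14 (log2, SE of limma's fit) at 2 h, an 11.8-fold higher level (adjusted p = 2.82e-14). It was 1.96 at 6 h, 2.35 at 24 h and 2.80 at 48 h. In DHL4 it was 2.21 ± 0.16 at 2 h, 2.60 at 6 h, 3.11 at 24 h (8.64-fold, adjusted p = 1.14e-13) and 1.56 at 48 h. In DHL6 the level at 6 h was below that at 2 h by a log2 difference of -1.60 ± 0.14 (adjusted p = 1.93e-07), and neither the step from 6 to 24 h (0.39, adjusted p = 0.152) nor that from 24 to 48 h (0.45, adjusted p = 0.0685) passed. The step to 48 h passed under quantile normalization (0.52, adjusted p = 0.0276) and without DHL6 R406 48 h replicate 2 (0.52, 0.0393), and was 0.30 (adjusted p = 0.557) without the 4 arrays that stood apart. In DHL4 the level at 48 h was below that at 24 h by a log2 difference of -1.55 ± 0.14 (adjusted p = 6.13e-09).

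Set 2 of BACH2 was called higher at all 8 comparisons as well. In DHL6 its differences were 1.67, 0.86, 1.32 and 1.60 at 2, 6, 24 and 48 h. In DHL4 they were 1.99, 2.71, 3.82 and 2.25, with the array DHL4 R406 2 h replicate 3 at 6.75 beside 7.52 and 7.63 in its group. Both probe sets were highest at 24 h in DHL4. In DHL6 the set 2 arrays at 48 h (6.31, 6.65 and 6.60) overlapped those at 2 h (6.67, 6.56 and 6.55), and without the 4 arrays that stood apart the difference from DMSO was 1.67 at 2 h and 1.73 at 48 h. Their order between lines differed: at 2 h, DHL6 minus DHL4 in the response was 1.36 on set 1 (adjusted p = 0.00066) and -0.32 on set 2 (adjusted p = 0.767), and at 48 h 1.23 (adjusted p = 0.00121) and -0.65 (adjusted p = 0.142). Without the 4 arrays that stood apart, set 2 at 2 h gave -0.59 (adjusted p = 0.0453).

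**Figure D1:**
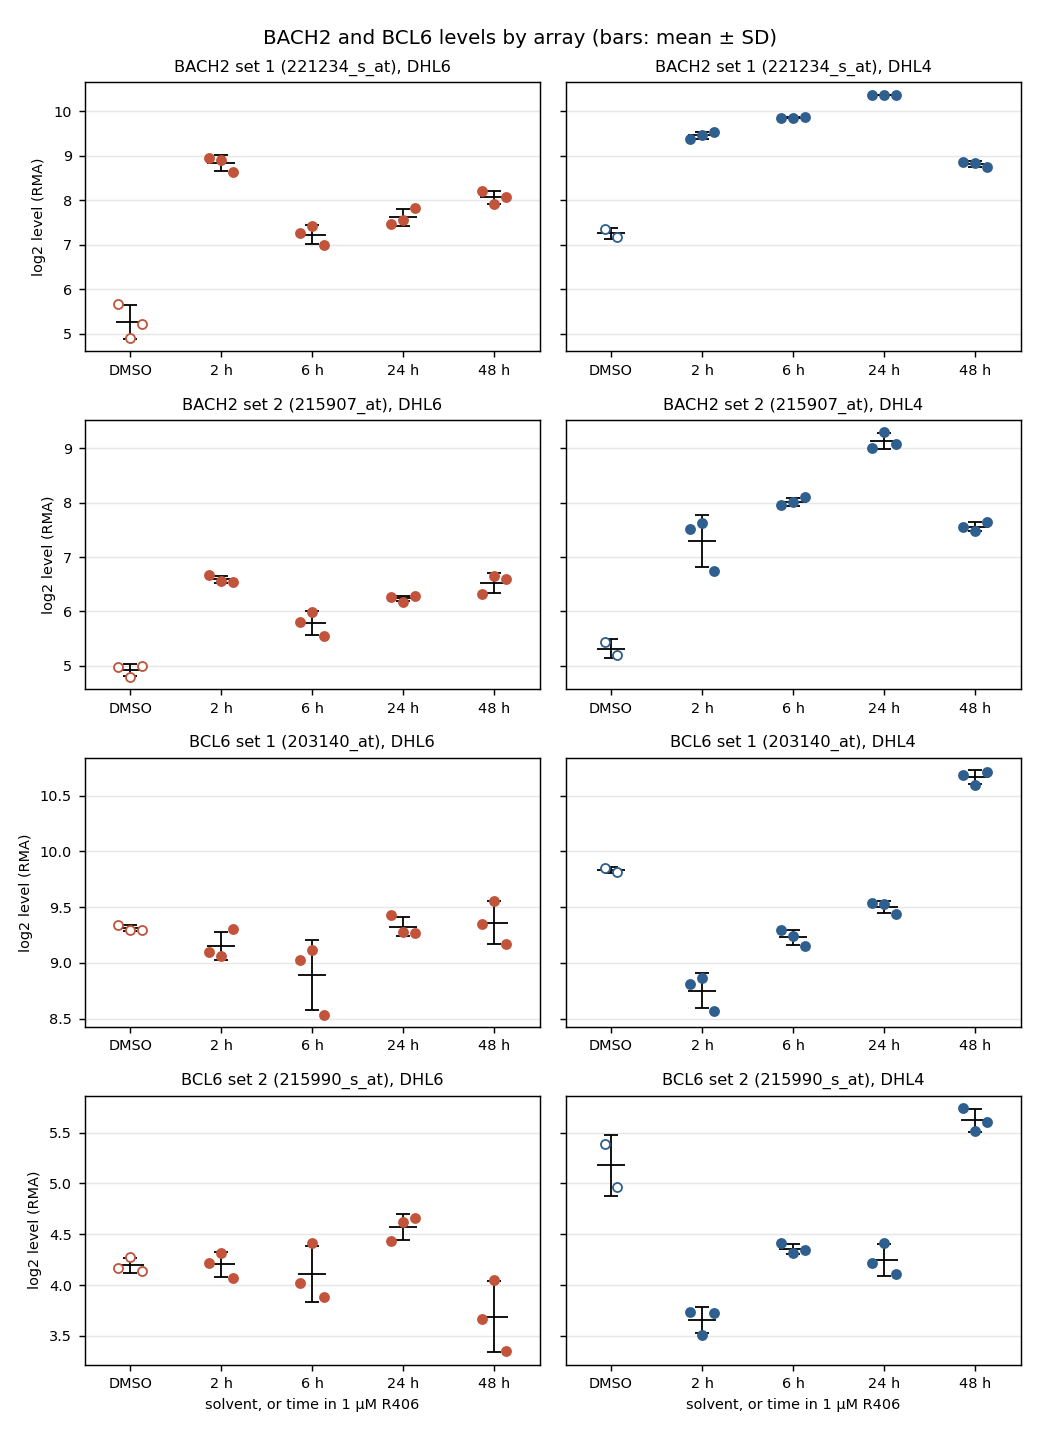
Log2 level (RMA) of each array for the BACH2 and BCL6 probe sets in DHL6 (left) and DHL4 (right), in DMSO (open points) and after 2, 6, 24 and 48 h in 1 µM R406 (filled), with bars for the mean ± SD of 3 arrays (2 for DHL4 in DMSO). BACH2 lies above DMSO at every time in both lines, whereas BCL6 set 1 stays between 8.54 and 9.56 in DHL6 and runs between 8.57 and 10.72 in DHL4.

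BCL6, the repressor that defines germinal-centre B cells, fell at 2 and 6 h in DHL4 and, on set 1, rose above DMSO at 48 h. Set 1 in DHL6 read 9.34, 9.29 and 9.30 in DMSO, 9.10, 9.07 and 9.30 at 2 h, 9.02, 9.12 and 8.54 at 6 h, 9.43, 9.28 and 9.27 at 24 h, and 9.35, 9.56 and 9.17 at 48 h. In DHL4 it read 9.85 and 9.82 in DMSO, 8.81, 8.87 and 8.57 at 2 h, 9.29, 9.24 and 9.16 at 6 h, 9.54, 9.53 and 9.44 at 24 h, and 10.68, 10.60 and 10.72 at 48 h. The DHL4 groups did not overlap DMSO at any time, and the DHL6 groups did at 2, 24 and 48 h. With 2 DMSO arrays in DHL4 and 3 in DHL6, a lack of overlap is easier to reach in DHL4. The share of all probe sets without overlap was not counted, here or for the other members.

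In DHL4 the log2 difference of BCL6 was -1.08 ± 0.14 at 2 h (2.12-fold lower, adjusted p = 6.1e-06) and -0.60 at 6 h (adjusted p = 0.00329). It was -0.33 at 24 h (adjusted p = 0.0846) and 0.83 at 48 h (1.78-fold higher, adjusted p = 0.000228). The level rose by 1.16 ± 0.12 at 48 h over 24 h (adjusted p = 4.7e-08). The 24 h difference passed when the 4 arrays were left out, at the same size (adjusted p = 0.00778). In DHL6 only the 6 h difference passed, at -0.42 ± 0.12 (adjusted p = 0.0361). Without DHL6 R406 6 h replicate 3, which read 8.54, it was -0.24 (adjusted p = 0.332, and 0.144 without the 4 arrays that stood apart), and without any 1 of the 3 DHL6 DMSO arrays the adjusted p was 0.0895 to 0.117.

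On set 2 of BCL6 the DHL4 differences were -1.52 ± 0.17 at 2 h (adjusted p = 9.41e-07), -0.82 at 6 h, -0.93 at 24 h and 0.44 at 48 h (adjusted p = 0.147, and 0.0437 without the 4 arrays that stood apart). The 6 h value was -0.61 (adjusted p = 0.0835) without DHL4 DMSO replicate 1. In DHL6 24 h was 0.38 (adjusted p = 0.119, and 0.0375 without those arrays), and only 48 h passed, at -0.50 (adjusted p = 0.0184), with arrays at 3.67, 4.05 and 3.35 against 4.17, 4.28 and 4.13 in DMSO. Without the 4 arrays that stood apart, which leaves 1 array at 48 h, it was -0.14 (adjusted p = 0.745). Leaving out DHL6 DMSO replicate 2 also ended this call (adjusted p = 0.073), as did leaving out DHL6 R406 48 h replicate 1 alone (0.0546) or replicate 3 alone (0.148).

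POU2AF1, the coactivator of Oct proteins at immunoglobulin promoters, rose at every time in both lines. In DHL6 it read 9.25, 9.20 and 9.16 in DMSO, 9.81, 9.80 and 9.84 at 2 h, 10.05, 10.02 and 9.83 at 6 h, 10.26, 10.11 and 10.27 at 24 h, and 10.29, 10.05 and 10.14 at 48 h. In DHL4 it read 10.07 and 9.96 in DMSO, 10.34, 10.45 and 10.39 at 2 h, 10.78, 10.89 and 10.83 at 6 h, 11.22, 11.25 and 11.20 at 24 h, and 10.56, 10.52 and 10.47 at 48 h. All R406 arrays lay above the DMSO arrays of their line. The differences were 0.61, 0.77, 1.01 and 0.96 in DHL6 (SE 0.08, adjusted p of at most 2.16e-05) and 0.38, 0.82, 1.21 and 0.50 in DHL4 (SE 0.09). The smallest, DHL4 at 2 h, had an adjusted p of 0.00984, and of 0.141 without DHL4 DMSO replicate 2. In DHL4 the level fell by 0.70 ± 0.08 at 48 h relative to 24 h (adjusted p = 3.17e-07).

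SPIB, an ETS factor of B cells, fell at 2 h in both lines and then parted between them. In DHL6 it read 7.93, 7.93 and 7.69 in DMSO, 6.07, 6.06 and 6.11 at 2 h, 7.30, 7.44 and 7.39 at 6 h, 7.15, 7.05 and 7.16 at 24 h, and 7.34, 7.08 and 6.63 at 48 h. In DHL4 it read 7.75 and 7.83 in DMSO, 5.77, 5.95 and 6.60 at 2 h, 7.08, 7.01 and 6.90 at 6 h, 8.68, 8.65 and 8.50 at 24 h, and 7.60, 7.48 and 7.44 at 48 h. DHL6 arrays stayed under DMSO throughout, and DHL4 arrays were above it at 24 h. At 2 h the log2 difference was -1.77 ± 0.16 in DHL6 (3.41-fold lower, adjusted p = 3.26e-08) and -1.68 ± 0.18 in DHL4 (3.21-fold lower, adjusted p = 3.51e-07). These responses differed by -0.09 (DHL6 minus DHL4, 95% interval -0.58 to 0.40).

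At 24 h SPIB differed from DMSO by -0.73 ± 0.16 in DHL6 (adjusted p = 0.00191) and by 0.82 ± 0.18 in DHL4 (adjusted p = 0.00067). The difference of the responses, -1.55 ± 0.24, passed with an adjusted p of 3.11e-05. At 48 h SPIB was -0.84 in DHL6 (adjusted p = 0.000325) and -0.28 in DHL4 (adjusted p = 0.511). The 6 h differences were -0.47 in DHL6 (adjusted p = 0.0725) and -0.79 in DHL4 (adjusted p = 0.00266). The DHL6 difference at 6 h passed without the 4 arrays that stood apart (-0.48, adjusted p = 0.0032). From the low point at 2 h, SPIB at 6 h was higher by 1.30 ± 0.16 in DHL6 (adjusted p = 1.26e-05) and by 0.89 ± 0.16 in DHL4 (adjusted p = 0.000441), and in DHL4 the 24 h level exceeded that at 6 h by 1.61 ± 0.16 (adjusted p = 1.81e-08).

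XBP1, a factor of the unfolded protein response in secretory cells, rose in DHL6 at 6, 24 and 48 h and in DHL4 at 24 h. In DHL6 it read 4.56, 4.45 and 4.32 in DMSO, 4.23, 4.31 and 4.36 at 2 h, 5.14, 5.20 and 4.97 at 6 h, 5.37, 5.40 and 5.25 at 24 h, and 5.49, 4.92 and 5.62 at 48 h. In DHL4 it read 4.19 and 4.13 in DMSO, 3.63, 3.71 and 4.27 at 2 h, 4.62, 4.41 and 4.51 at 6 h, 5.80, 6.06 and 5.57 at 24 h, and 3.47, 3.60 and 3.82 at 48 h. DHL6 groups did not overlap DMSO from 6 h, and in DHL4 the 24 h arrays lay highest and the 48 h arrays below DMSO. The DHL6 differences were 0.66 at 6 h (adjusted p = 0.0103), 0.90 at 24 h and 0.90 at 48 h (SE 0.16), and the DHL4 difference at 24 h was 1.65 ± 0.18 (3.14-fold, adjusted p = 6.53e-08).

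Without the arrays that stood apart, XBP1 at 48 h in DHL6 was 0.48 (adjusted p = 0.0633), from the sole remaining R406 array, whose spread is taken from the other groups. In DHL6 at 6 h the difference was 0.60 (adjusted p = 0.0617) without DHL6 DMSO replicate 3. In DHL4 the level fell by 2.18 ± 0.16 at 48 h relative to 24 h (adjusted p = 1.05e-10), and stood at -0.53 relative to DMSO (adjusted p = 0.0889, and 0.00647 without the 4 arrays). At 2 h in DHL4, XBP1 was -0.29 (adjusted p = 0.419), and -0.49 (adjusted p = 0.0252) without replicate 3 and the other arrays that stood apart.

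IRF8, an interferon regulatory factor of germinal-centre B cells, rose once in each line. In DHL6 it read 8.04, 8.06 and 7.92 in DMSO and 8.55, 8.50 and 8.64 at 24 h, and ranged from 7.96 to 8.42 at the other R406 times. In DHL4 it read 8.07 and 7.98 in DMSO and 8.71, 8.69 and 8.91 at 48 h, and ranged from 7.72 to 8.11 earlier. The calls were 24 h in DHL6 (0.55 ± 0.10, adjusted p = 0.000364) and 48 h in DHL4 (0.74 ± 0.11, adjusted p = 9.87e-05). At 2 h in DHL6 it was 0.34 (adjusted p = 0.0611, and 0.0102 without the 4 arrays that stood apart). This passed under quantile normalization (0.39, adjusted p = 0.00528), as did 48 h in DHL6 (0.21, adjusted p = 0.161, and 0.36, adjusted p = 0.00343, with quantile normalization).

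**Figure D2:**
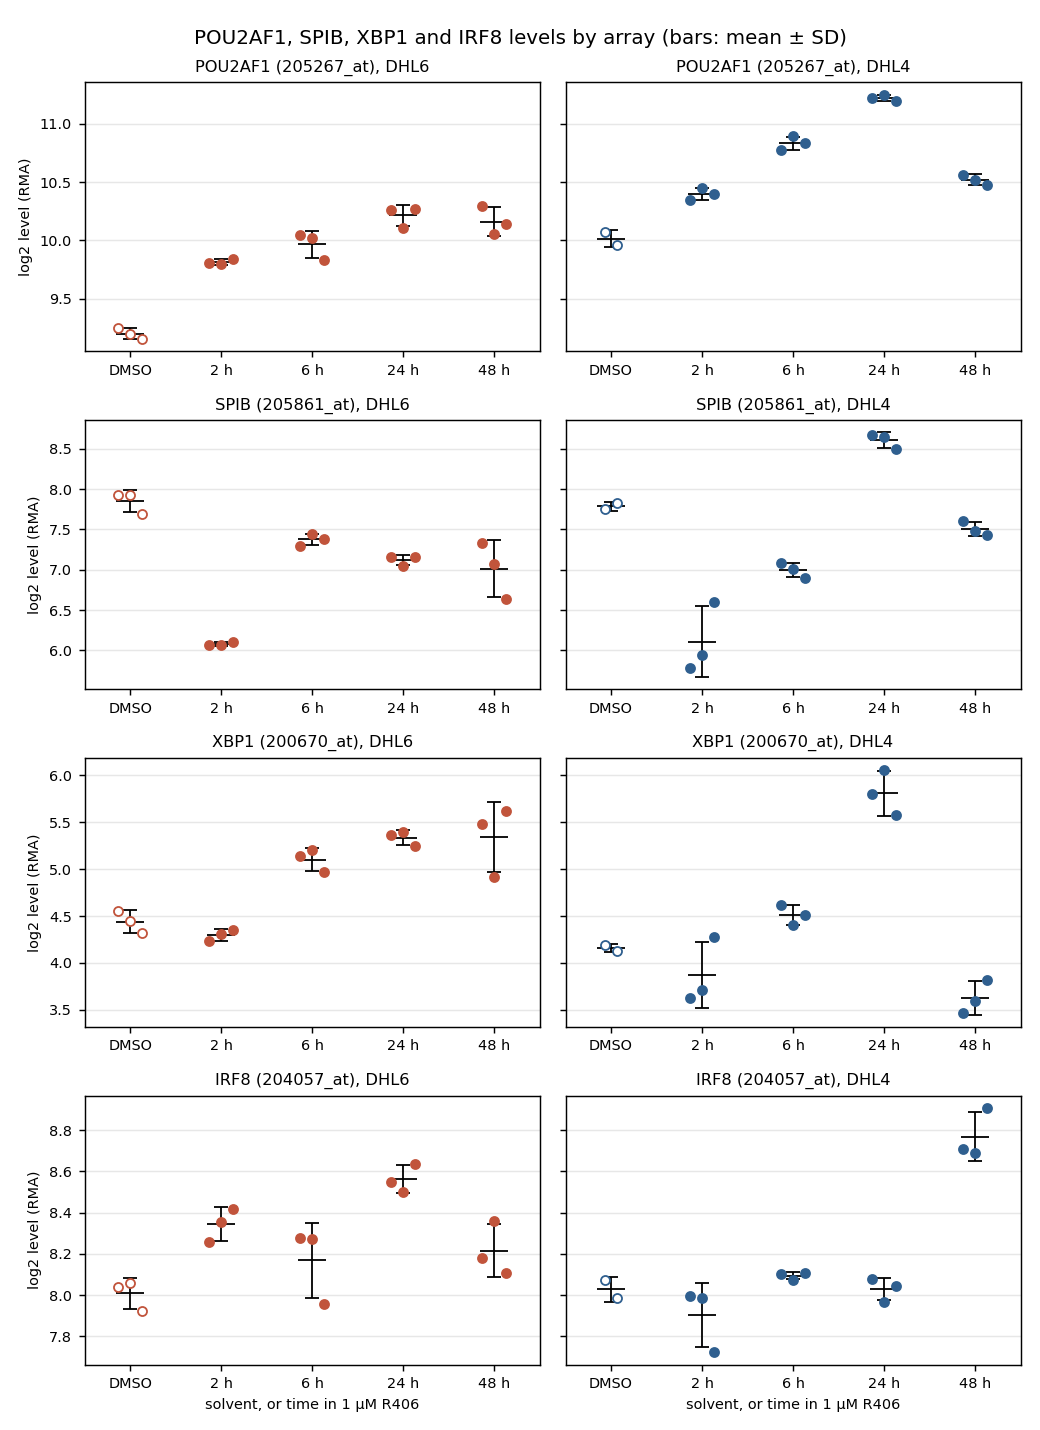
Log2 level (RMA) of each array for POU2AF1, SPIB, XBP1 and IRF8 in DHL6 (left) and DHL4 (right), in DMSO (open points) and after 2, 6, 24 and 48 h in 1 µM R406 (filled), with bars for the mean ± SD. POU2AF1 lies above DMSO at every time, SPIB lies between 5.77 and 6.60 at 2 h, and XBP1 and SPIB peak at 24 h in DHL4.

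IRF4, which drives plasma cell formation at high levels, differed between the lines in solvent more than any other member probe set and rose once, at 6 h in DHL6. On set 1 DHL6 read 6.27, 6.26 and 6.37 in DMSO, 6.94, 6.81 and 6.55 at 2 h, 7.60, 7.78 and 7.88 at 6 h, 5.98, 6.32 and 6.31 at 24 h, and 5.79, 5.78 and 5.95 at 48 h. DHL4 read 3.74 and 3.60 in DMSO, 3.92, 5.14 and 3.66 at 2 h, 3.29, 3.68 and 3.48 at 6 h, 4.40, 3.72 and 3.77 at 24 h, and 3.48, 3.69 and 2.78 at 48 h. In DHL6 the 6 h arrays stood above all others, and in DHL4 every R406 group overlapped DMSO. The 6 h difference in DHL6 was 1.46 ± 0.26 (2.74-fold, adjusted p = 0.000411), and the level at 24 h was below that at 6 h by a log2 difference of -1.55 (adjusted p = 0.000572). In DHL4 the differences lay between -0.35 and 0.57, with an adjusted p of at least 0.281.

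Sets 2 and 3 of IRF4 passed at no time in either line. Their lowest adjusted p was 0.513 and 0.684, and their lowest unadjusted p 0.15 and 0.324. Set 3 was dim in all 10 groups. Set 2 lay near the overall median of 3.18, with arrays from 2.93 to 3.90. Between the lines in DMSO it differed by 0.12 (DHL6 minus DHL4, adjusted p = 0.787 by limma), against 2.63 on set 1. At such levels sets 2 and 3 say little on the 6 h rise of set 1.

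PRDM1, the repressor that ends the B-cell programme in plasma cells, was dim in all 10 groups. Its arrays ranged from 2.52 to 3.10 over both lines, and its differences from DMSO ran from -0.24 to 0.13 in DHL6 and from -0.08 to -0.02 in DHL4. No comparison with DMSO passed limma's test, with a lowest adjusted p of 0.11 and a lowest unadjusted p of 0.0176, at 24 h in DHL6, where the arrays read 2.66, 2.52 and 2.52 against 2.86, 2.84 and 2.75 in DMSO. That difference passed narrowly when each array was centred on its median (-0.30, adjusted p = 0.0494). In DHL6 PRDM1 at 24 h was below 6 h by a log2 difference of -0.38 (adjusted p = 0.0217), a call lost without 6 h replicate 1 or 2 or 24 h replicate 2 or 3 (adjusted p = 0.0525 to 0.0902).

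PAX5, the factor that keeps B-cell identity, was also dim in all 10 groups on its sole probe set, with arrays from 2.51 to 3.35. Its differences from DMSO ran from -0.20 to 0.23, the lowest adjusted p was 0.373 and the lowest unadjusted p 0.118. For PAX5 and PRDM1, each with a sole probe set at this level, little RNA and poor detection cannot be told apart.

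**Figure D3:**
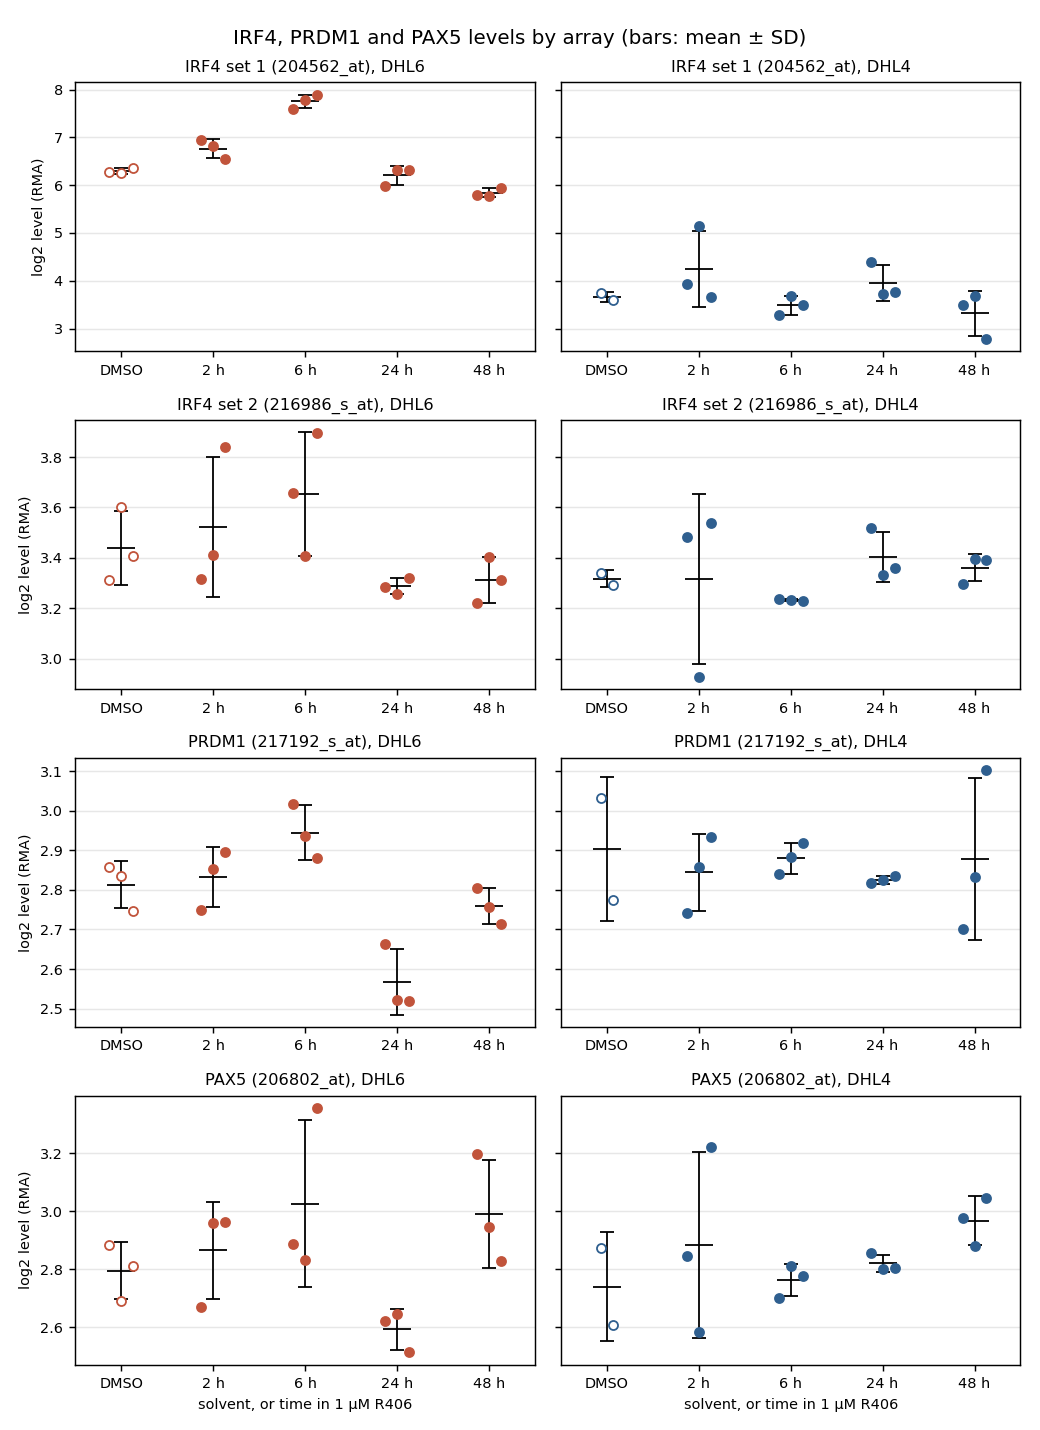
Log2 level (RMA) of each array for IRF4 (set 1 and set 2), PRDM1 and PAX5 in DHL6 (left) and DHL4 (right), in DMSO (open points) and after 2, 6, 24 and 48 h in 1 µM R406 (filled), with bars for the mean ± SD. IRF4 set 1 lies between 5.78 and 7.88 in DHL6 and between 2.78 and 5.14 in DHL4, while PRDM1 and PAX5 stay within 2.51 to 3.35.

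In DMSO, 5 member probe sets differed between the lines, where 17.2% of all probe sets did. BACH2 set 1 was lower in DHL6, by a log2 difference of -1.99 ± 0.16 (DHL6 minus DHL4, adjusted p = 7.58e-10), as were both BCL6 probe sets (-0.52 and -0.99) and POU2AF1 (-0.81, adjusted p = 2.65e-07). The BCL6 set 1 difference had an adjusted p of 0.0679 without DHL4 DMSO replicate 1. IRF4 set 1 was higher in DHL6, by 2.63 ± 0.29 (6.19-fold, adjusted p = 1.47e-07). BACH2 set 2 was -0.39 (adjusted p = 0.16, and 0.00984 without the 4 arrays that stood apart). SPIB (0.06, 95% interval -0.30 to 0.42) and IRF8 (-0.02, -0.25 to 0.21) did not pass.

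The difference of the R406 responses, DHL6 minus DHL4, passed for 3, 2, 6 and 6 of the 13 probe sets at 2, 6, 24 and 48 h, against 1.31%, 5.58%, 13.9% and 3.99% of all probe sets. The 48 h count was 3 without the 4 arrays that stood apart and 2 without DHL4 DMSO replicate 2, and the 6 h count was 1 without DHL4 DMSO replicate 1. For BCL6 set 1 this difference was positive at 2 h (0.92 ± 0.18, adjusted p = 0.007) and negative at 48 h (-0.78 ± 0.18, adjusted p = 0.0139). These 2 calls had an adjusted p of 0.0542 without DHL4 DMSO replicate 1 and of 0.0824 without DHL4 DMSO replicate 2. XBP1 at 48 h was 1.43 ± 0.24 (adjusted p = 0.000853).

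**Figure D4:**
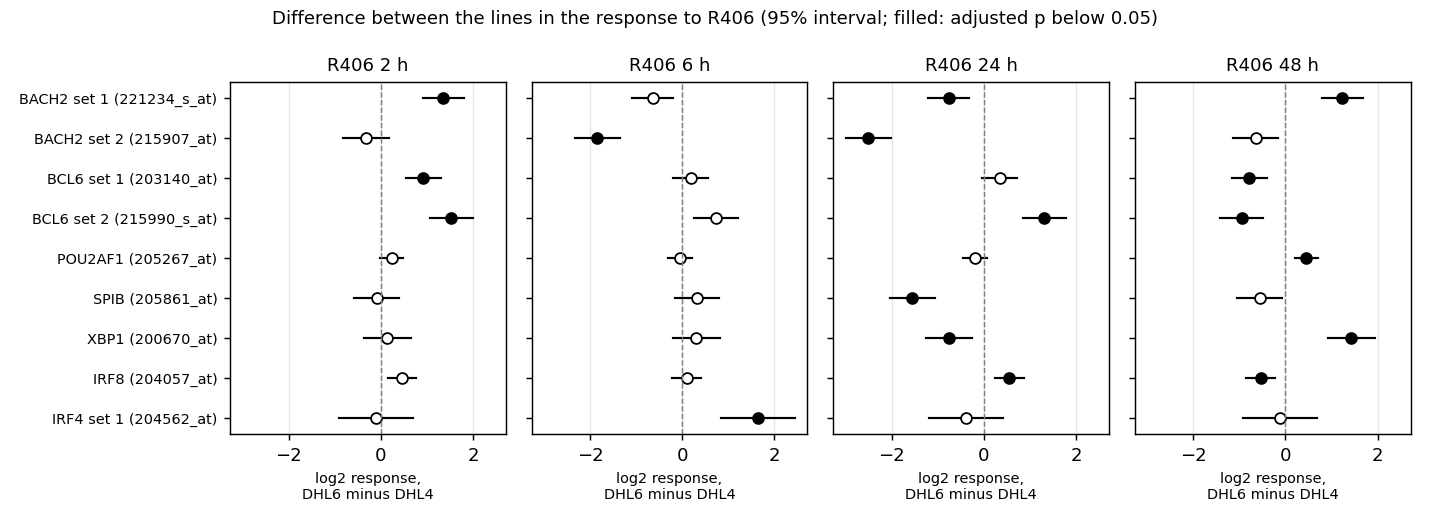
Difference of the log2 responses to R406, DHL6 minus DHL4, at 2, 6, 24 and 48 h for 9 member probe sets, with 95% intervals of limma's fit. Filled points passed at an adjusted p below 0.05, and both BCL6 probe sets lie right of 0 at 2 h and left of it at 48 h.

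Genes linked to the members were counted at their probe set of highest mean. Of 15 measured genes of the plasma cell programme, 7 passed at 24 h in DHL6 and 8 in DHL4, where 14% and 29.1% of all genes passed (6.02% higher and 7.96% lower in DHL6, 12.8% and 16.3% in DHL4). In DHL6 5 of the 7 were lower and in DHL4 6 of the 8. The median difference was -0.02 in DHL6 and -0.21 in DHL4, against 0.02 and 0.03 over all genes. CD27, a receptor of memory B cells and plasma cells, rose by 1.70 ± 0.12 in DHL6 (8.59 in R406, 6.89 in DMSO) and by 2.47 ± 0.14 in DHL4 (10.57 in R406, 8.11 in DMSO). TNFRSF17, the survival receptor BCMA, fell by 3.10 in DHL6 and EAF2 by 1.57 there and by 1.77 in DHL4. CD38 rose by 1.09 in DHL6, while TXNDC5 (-2.25) and FKBP11 (-1.91), which help to fold secreted proteins, fell in DHL4. The DHL4 means at 24 h went the same way for TNFRSF17 (5.21 in R406, 6.87 in DMSO) and CD38 (8.23 in R406, 7.71 in DMSO). Over the other times 3, 5 and 7 of the 15 passed in DHL6 at 2, 6 and 48 h, against 5.04%, 7.88% and 22.6% of all genes, and 5, 6 and 2 in DHL4, against 9.18%, 12.4% and 7.08%.

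Of 18 measured genes that BCL6 is known to repress, 4 passed at 24 h in DHL6, 3 of them higher, and 8 in DHL4, 6 of them higher, where 14% of all genes passed in DHL6 (6.02% higher) and 29.1% in DHL4 (12.8% higher). The medians were -0.01 in DHL6 and 0.18 in DHL4, against 0.02 and 0.03 over all genes. CXCR4, a homing receptor, rose by 1.63 ± 0.12 in DHL6 (10.88 in R406, 9.25 in DMSO) and by 4.93 ± 0.13 in DHL4 (11.44 in R406, 6.51 in DMSO). ID2, an inhibitor of E proteins, rose by 2.58 in DHL6 and 2.18 in DHL4. CD69, an activation marker, rose by 4.22 in DHL4 at 24 h (6.84 in R406, 2.62 in DMSO, where it was dim), and CDKN1B, a CDK inhibitor, by 3.23. In DHL6 MYC rose by 1.00 and the checkpoint kinase CHEK1 was lower (-1.27, adjusted p = 0.013). Of the 18, 3, 5 and 6 passed in DHL6 at 2, 6 and 48 h (5.04%, 7.88% and 22.6% of all genes) and 4, 3 and 1 in DHL4 (9.18%, 12.4% and 7.08%). Higher among these were 3, 5 and 4 in DHL6 and 2, 2 and 1 in DHL4. The median at 2, 6 and 48 h was -0.01, -0.05 and 0.03 in DHL6, against 0.02, 0.01 and 0.04 over all genes. In DHL4 it was -0.06, 0.01 and 0.02, against 0.01 over all genes each time.

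Among 9 measured corepressors of BCL6, 2 passed at 24 h in DHL6 and 5 in DHL4, against 14% and 29.1% of all genes. The histone deacetylase HDAC7 rose in both lines (0.57 in DHL6, where it was dim in DMSO, and 0.94 in DHL4), TBL1XR1 fell by 1.00 in DHL6, and HDAC9 (-1.58) and HDAC5 (-1.14), both dim in R406, and CTBP1 (-0.71, on a probe set of a kind that can bind other transcripts) were lower in DHL4. The medians were 0.03 in DHL6 and -0.03 in DHL4, against 0.02 and 0.03 over all genes. Earlier and later, 1, 2 and 2 of the 9 passed in DHL6 at 2, 6 and 48 h (5.04%, 7.88% and 22.6% of all genes) and 2, 4 and 3 in DHL4 (9.18%, 12.4% and 7.08%).

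Of 9 measured targets of PAX5, 2 passed at 24 h in DHL6, both lower, and 5 in DHL4, all higher, where 14% of all genes passed in DHL6 (7.96% lower) and 29.1% in DHL4 (12.8% higher). CD79A, a chain of the B-cell receptor complex, fell by 1.03 ± 0.13 in DHL6 (8.39 in R406, 9.42 in DMSO) and rose by 0.90 ± 0.14 in DHL4 (9.71 in R406, 8.82 in DMSO). CD72, an inhibitory receptor, was lower in DHL6 (-1.96, adjusted p = 3.81e-09). LEF1 (1.72), BLNK (0.77), a SYK substrate and adaptor, and CIITA (0.61), the activator of MHC class II genes, rose in DHL4. The medians were 0.06 in DHL6 and 0.52 in DHL4, against 0.02 and 0.03 over all genes. At 2, 6 and 48 h 3 of the 9 passed each time in DHL6 (5.04%, 7.88% and 22.6% of all genes), and 2, 2 and 1 in DHL4 (9.18%, 12.4% and 7.08%). Of these 0, 0 and 1 were higher in DHL6 and 0, 1 and 1 in DHL4.

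A further list held partners of BACH2, its paralogue BACH1 and antioxidant targets shared with that paralogue, and is not limited to targets of BACH2. Of its 9 measured genes, none passed at 24 h in DHL6 and 2 in DHL4, where 14% and 29.1% of all genes passed. At an unadjusted p under 0.05 by limma there were 0 and 3. BACH1, the paralogue, rose by 1.22 ± 0.20 in DHL4 (4.38 in R406, 3.17 in DMSO, where it was dim), and FTL, the ferritin light chain, was lower (-0.37, adjusted p = 0.000648, on a probe set of a kind that can bind other transcripts). HMOX1, a classical target of BACH1, was not called at 24 h (0.03 in DHL6 and 0.06 in DHL4). The medians were -0.07 in DHL6 and 0.06 in DHL4, against 0.02 and 0.03 over all genes. At 2, 6 and 48 h 1, 1 and 2 of the 9 passed in DHL6 (5.04%, 7.88% and 22.6% of all genes). In DHL4 none did (9.18%, 12.4% and 7.08% of all genes), with 0, 1 and 0 at an unadjusted p under 0.05.

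Of 23 measured further B-cell transcription factors, 9 passed at 24 h in DHL6, 3 of them higher, and 13 in DHL4, 9 of them higher, where 14% of all genes passed in DHL6 (6.02% higher) and 29.1% in DHL4 (12.8% higher). ID3, an inhibitor of E proteins, fell by 1.33 ± 0.19 in DHL6 (6.76 in R406, 8.09 in DMSO) and rose by 2.16 ± 0.21 in DHL4 (9.98 in R406, 7.82 in DMSO). LMO2, a germinal-centre factor, was lower in DHL6 (-2.57, with 2.85 in R406 and 5.42 in DMSO), as was HHEX (-1.49). The mean of LMO2 was lower in DHL4 as well, at 6.18 in DMSO and 3.09, 3.37, 4.98 and 3.87 at 2, 6, 24 and 48 h. TCF4 (2.33) and FOXO1 (1.92) rose in DHL4. The medians were -0.05 in DHL6 and 0.38 in DHL4, against 0.02 and 0.03 over all genes. At 2, 6 and 48 h 6, 8 and 9 of the 23 passed in DHL6 (5.04%, 7.88% and 22.6% of all genes) and 10, 11 and 5 in DHL4 (9.18%, 12.4% and 7.08%). Of these 1, 2 and 4 were higher in DHL6 and 2, 6 and 3 in DHL4. The median at 2, 6 and 48 h was -0.22, -0.17 and 0.06 in DHL6, against 0.02, 0.01 and 0.04 over all genes. In DHL4 it was -0.33, -0.01 and 0.19, against 0.01 over all genes each time.

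Of 11 measured genes of the unfolded protein response, 3 passed at 24 h in DHL6, all lower, and 7 in DHL4, 4 of them lower. Of all genes 14% passed in DHL6 (7.96% lower) and 29.1% in DHL4 (16.3% lower). The list includes ATF6 and ERN1, sensors of this response, and is not limited to targets of XBP1. HSPA5, the main chaperone of the endoplasmic reticulum, fell by 1.00 ± 0.09 in DHL6 (9.02 in R406, 10.02 in DMSO) and by 2.09 ± 0.10 in DHL4 (8.47 in R406, 10.55 in DMSO). SDF2L1 was lower in both lines (-0.85 in DHL6, -2.44 in DHL4), HERPUD1 in DHL6 (-0.37) and PDIA4 in DHL4 (-1.05), while EDEM1 rose in DHL4 (1.15). At this time the RNA of XBP1 was higher in both lines, and its splicing was not measured. The medians were -0.20 in DHL6 and 0.03 in DHL4, against 0.02 and 0.03 over all genes. At 2, 6 and 48 h 3, 4 and 3 of the 11 passed in DHL6 (5.04%, 7.88% and 22.6% of all genes) and 4, 5 and 2 in DHL4 (9.18%, 12.4% and 7.08%).

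The genes whose pattern was most like that of a member were found over the 10 group means after each line's own mean was subtracted, among genes that span at least 1 log2 unit in each line. For BACH2 these were FUCA1 (Pearson r = 0.94), TUT7 (0.92) and TANK (0.89). FUCA1 averaged 6.32, 7.70, 7.50, 7.26 and 7.49 in DHL6 and 5.94, 7.34, 7.40, 7.32 and 6.80 in DHL4 in DMSO and at 2, 6, 24 and 48 h. For BCL6 they were MACF1 (0.85), EPS15L1 (0.84) and TRAF3IP3 (0.83), and for IRF4 RELB (0.81), PCK2 (0.81) and CTH (0.80). For PRDM1, whose own levels lie at the floor, they were NFKBIE (0.77), SLC29A1 (0.72) and SIAH2 (0.71). The points share their DMSO arrays and their arrays' scaling. The genes named are the 3 highest of 761 candidates for BACH2 and of 762 for each other member. The group means of BCL6 set 1 span 1.91 in DHL4 and 0.47 in DHL6. Those of IRF4 set 1 span 0.92 in DHL4 and 1.92 in DHL6. For PRDM1 the group means span only 0.08 in DHL4 and 0.38 in DHL6, so its likeness rests on small differences between dim values. The likeness to BCL6 thus rests mainly on DHL4, and that to IRF4 mainly on DHL6.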

How the data were processed

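The deposited log2 values per probe set of 29 Affymetrix human arrays were used. The submitters' processing notes name RMA, whose background correction and probe fit can compress dim probe sets. Their fold changes may be understated, which was not tested. For the version of RMA and the sets of arrays run jointly through it, no statement was found: not given in the sources used here. Of 22277 probe sets, 62 array controls were left out; 19724 had a single symbol (19707 updated by Entrez identifier), 568 several and 1923 none listed. limma 3.58.1 in R 4.3.3 (lmFit, eBayes) fitted 10 group means to all arrays, with 19 residual and 5.15 prior degrees of freedom, and Benjamini-Hochberg adjustment over 22215 probe sets in each of 19 contrasts. A probe set was called at an adjusted p below 0.05. Genes of the lists were read at their brightest probe set. The members and the 7 gene lists were chosen with earlier results of these data known. Named beside the members are up to 4 called genes per list and line with the largest change at 24 h, and the 3 genes most like BACH2, BCL6, PRDM1 and IRF4; HMOX1 was added after its values were seen. The number of arrays limits the precision. The fit was tested on simulated data with independent noise in each array. That test cannot show how effects shared by arrays or cultures bear on the calls. Quantile normalization, median centring, a filter on dim probe sets, 1 probe set per gene, only the compared groups, a replicate block, an intensity trend and leaving out each array were tried, as was leaving out the 4 arrays that stood apart, which was chosen after seeing the data.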

Additional observations from a re-analysis of the deposited data

Results flagged for a closer look

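For 17 member probe sets and times, the response to R406 differed between the lines by limma's test of the difference itself (DHL6 minus DHL4, log2, adjusted p below 0.05 over all probe sets). BACH2 set 1 gave 1.36 at 2 h, -0.76 at 24 h and 1.23 at 48 h. BACH2 set 2 gave -1.84 at 6 h and -2.50 at 24 h. The 24 h value on set 1 lost its call without DHL6 DMSO replicate 1 (-0.56, adjusted p = 0.0603), DHL6 R406 24 h replicate 1 (-0.68, 0.0501) or DHL4 DMSO replicate 2 (-0.67, 0.103).

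BCL6 set 1 gave 0.92 at 2 h and -0.78 at 48 h, and BCL6 set 2 gave 1.53 at 2 h, 1.31 at 24 h and -0.94 at 48 h. The last was -0.58 (adjusted p = 0.226) without the 4 arrays that stood apart, and -0.73 (0.197) without DHL4 DMSO replicate 2. On set 1 the 2 h call was lost without DHL4 DMSO replicate 1 (0.91, adjusted p = 0.0542) and the 48 h call without DHL4 DMSO replicate 2 (-0.77, 0.0824).

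IRF4 set 1 gave 1.64 at 6 h, and 1.56 (adjusted p = 0.0556) without DHL4 DMSO replicate 1. SPIB gave -1.55 at 24 h. IRF8 gave 0.55 at 24 h, and 0.51 (adjusted p = 0.074) without DHL4 DMSO replicate 1. XBP1 gave 1.43 at 48 h and -0.76 at 24 h. The XBP1 call at 24 h was lost in 9 of 11 fits that left out an array (all but DHL6 DMSO replicate 3 and DHL4 R406 24 h replicate 3), with values from -0.87 to -0.63 over the 11 fits.

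At 48 h IRF8 gave -0.53 and POU2AF1 gave 0.46. Each of these calls was lost in 10 of 11 such fits, all but that without DHL6 R406 48 h replicate 2, with values from -0.61 to -0.46 for IRF8 and from 0.39 to 0.51 for POU2AF1. Without the 4 arrays that stood apart they were -0.39 (adjusted p = 0.213) and 0.35 (adjusted p = 0.238).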

How the results depend on the processing

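Over 281 alternative counts of called members, 261 stayed within 1.5 times of the reported count and 20 did not. Of 3520 alternative differences of single probe sets, 3353 stayed on the same side of the threshold, 114 lost their call, 53 gained one and none changed sign while called. The counts that moved concern 4 comparisons. For R406 24 h minus 6 h in DHL6 (4 called) the count was 2 with median centring, 1 with only the compared groups, 2 without the 4 arrays that stood apart, and 1 to 4 when any array was left out (2 or fewer without DHL6 R406 6 h replicate 3 or any 24 h array). For R406 48 h minus 24 h in DHL6 (2 called) it was 1 with 1 probe set per gene, 0 with only the compared groups (5 at an unadjusted p under 0.05 by limma), 0 without the 4 arrays (4 at an unadjusted p under 0.05), and 1 to 3 when any array was left out (1 without DHL6 R406 24 h replicate 1 or 2 or 48 h replicate 1 or 3). For the difference of responses at 6 h (2 called) it was 1 with 1 probe set per gene, and 1 to 3 when any array was left out. For that at 48 h (6 called) it was 3 with only the compared groups, 3 without the 4 arrays, and 2 to 6 when any array was left out. The share called higher was 5 of 7 with median centring at 6 and 24 h in DHL6 and at 24 h in DHL4, against 5 of 6 as reported. Fewer arrays or fewer probe sets entered several of these fits, and the cause was otherwise not tested.

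The replicate number as a block gave 1 called member for R406 48 h minus 24 h in DHL6, and its other counts stayed within 1.5 times. The numbers share no stated origin: same-numbered arrays of different groups correlated in their deviations at a median of -0.02 over 30 pairs in DHL6 and 0.00 over 26 pairs in DHL4, with 3 and 2 pairs over 0.1.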
